A study of Mus musculus with 4 samples.

Results

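The genes described here encode the parts of motile cilia and the factors that switch them on. They were chosen by name: protein-coding genes whose symbols begin with Dnah, Dnaic, Dnai, Dnaaf, Cfap, Tekt, Rsph or Spag followed by a number, together with Foxj1, Mcidas, Ccno and Hydin, if their mean over the 4 libraries was at least 10 normalized read counts. Of 75 protein-coding genes with such names among the 48709 genes of the table, 70 met the minimum. The samples were left lung lobes taken on postnatal day 1 from C57BL/6 pups: 2 untreated mice homozygous for the SL allele of the WNT receptor gene Ryk (RykSL/SL, called mutant) and 2 untreated wild-type mice. The labels say neither what the SL allele changes in Ryk nor whether it acts in all cells, and they give no sex or litter. The comparison addresses how the lung transcriptome differs between these genotypes at birth.

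Motile cilia cover the multiciliated cells of the conducting airways and move mucus towards the throat. Each cilium is built on an axoneme, a ring of doublet microtubules around a central pair. Outer and inner dynein arms on the doublets slide them against each other, radial spokes and the central apparatus regulate that sliding, and tektins and other proteins line the doublets. Dynein arms are assembled in the cytoplasm with the help of dedicated factors before transport into the cilium. A cell enters this programme when multicilin (Mcidas) and cyclin O (Ccno) drive the production of many basal bodies and FOXJ1, together with RFX factors, turns on axonemal genes. In whole lung RNA, fewer ciliated cells and less RNA per ciliated cell cannot be told apart.

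RFX factors bind an inverted repeat called the X-box, and the members carried it more often than other genes close to their start sites. Promoters were found for 58 members in the RefSeq table (GRCm38.p6), and the 250 bases before each start were searched on both strands for an X-box with a gap of 0 to 3 bases between its arms. This form was used after the results of the simpler searches given further on were known. The X-box occurred in 11 of the 58 members (19.0%), in 6 of 47 other multiciliated cell genes (12.8%), in 1 of 29 intraflagellar transport genes (3.45%) and in 180 of 11114 tested protein-coding genes (1.62%). The following sequences, 1 or 2 from each structural class that had one, show the box in its setting. Each is 80 bases long, runs 5′ to 3′ along the gene's strand, and has the X-box in capitals.

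Hydin (chr8:110266897-110266976, + strand): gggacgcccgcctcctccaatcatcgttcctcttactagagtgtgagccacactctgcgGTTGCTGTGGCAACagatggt
Cfap44 (chr16:44394719-44394798, + strand): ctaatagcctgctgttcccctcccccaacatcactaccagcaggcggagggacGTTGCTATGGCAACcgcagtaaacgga
Dnaic1 (chr4:41569714-41569793, + strand): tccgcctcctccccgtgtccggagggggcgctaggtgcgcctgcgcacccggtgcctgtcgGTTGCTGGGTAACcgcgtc
Dnaic2 (chr11:114727339-114727418, + strand): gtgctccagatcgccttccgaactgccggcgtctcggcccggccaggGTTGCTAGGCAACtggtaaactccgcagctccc
Dnaaf2 (chr12:69198430-69198509, - strand): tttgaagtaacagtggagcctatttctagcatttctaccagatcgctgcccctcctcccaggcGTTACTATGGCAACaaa
Tekt2 (chr4:126325689-126325768, - strand): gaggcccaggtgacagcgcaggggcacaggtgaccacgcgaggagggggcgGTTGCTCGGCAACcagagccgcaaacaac
Spag16 (chr1:69826847-69826926, + strand): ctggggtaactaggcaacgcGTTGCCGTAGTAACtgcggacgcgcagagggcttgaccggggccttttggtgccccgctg

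In Hydin the box ended 8 bases before the RefSeq start, in Cfap44 14, in Dnaic1 7, in Dnaic2 21, in Dnaaf2 4, in Tekt2 17 and in Spag16 90 bases before it. In these 7 genes the box was 13 or 14 bases long. The remaining 4 genes with a box were Cfap45, Cfap58, Cfap99 and Ccno. Another form, symmetric, was GTTNCC and GGNAAC with a gap of 0 to 3 bases. It allows bases in its arms that the X-box above does not, so neither form contains the other. The symmetric form was in 0 of the 58 members and 4 of the 47 other multiciliated cell genes (8.51%). It was in 3 of the 29 intraflagellar transport genes (10.3%) and 98 of the 11114 genes (0.88%). For this form the members were the lowest of the sets and the transport genes the highest. The single arm GTTGCC, read on both strands and overlapping the X-box in some genes, was in 18 members (31.0%) and 1417 tested genes (12.8%). The forkhead sequence GTAAACA, on both strands, was in 4 members (6.90%) and 313 tested genes (2.82%). The matches are descriptions of the sequence. Members with an X-box had a median log2 fold change of 0.05 and the 47 members without one a median of 0.10.

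Library totals of the normalized values lay between 18658239 and 19987634, and the spacing of the low values pointed to between 17050000 and 22830000 counted reads before scaling. Mutant replicate 1 stood apart in the RNA of the inactive X chromosome, with 24836 normalized counts of Xist against 7 to 23 in the other lungs. The Y chromosome gene Ddx3y had 56 normalized counts in mutant replicate 1 and 3769 in mutant replicate 2, against 2328 and 2197 in the wild type. By these genes mutant replicate 1 read as female and the other lungs as male. The part of sex in the differences between lungs was not tested. Ryk itself had 2757 and 2203 normalized counts with the SL allele, against 2528 and 2525 in the wild type. The labelled tissue was matched by its markers: the surfactant gene Sftpc had at least 135559 and the club cell gene Scgb1a1 at least 35648 normalized counts in every library.

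No motile cilia gene passed the test between the genotypes. The test was limma on log2(value + 1) over 18436 genes with Benjamini-Hochberg adjustment, in which 2.39% of all tested genes were called at an adjusted p under 0.05, 1.47% as higher and 0.917% as lower in the mutant. The count was 0 of 70 members in each direction. At an unadjusted p under 0.05, 8 members were higher and 1 was lower, or 9 of 70, where 20.1% of all tested genes were below this value, 10.4% higher and 9.64% lower. Both mutant lungs lay above both wild-type lungs in 16 members (22.9%) and below both in 6 (8.6%), against 25.7% and 26.9% of all tested genes, and the groups overlapped in the other 48. The median log2 fold change of the members, mutant minus wild type, was 0.10, beside -0.02 over all tested genes. For 40 of the 70 members the 95% confidence interval of the log2 fold change lay within -1 and 1, so that a change of 2-fold or more was outside the interval. Without mutant replicate 1, 3 members passed: Rsph10b (log2 fold change 1.03, adjusted p = 0.0410), Cfap69 (0.91, adjusted p = 0.0464) and Spag9 (0.53, adjusted p = 0.0453), while 2385 genes passed in all.

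**Figure D1:**
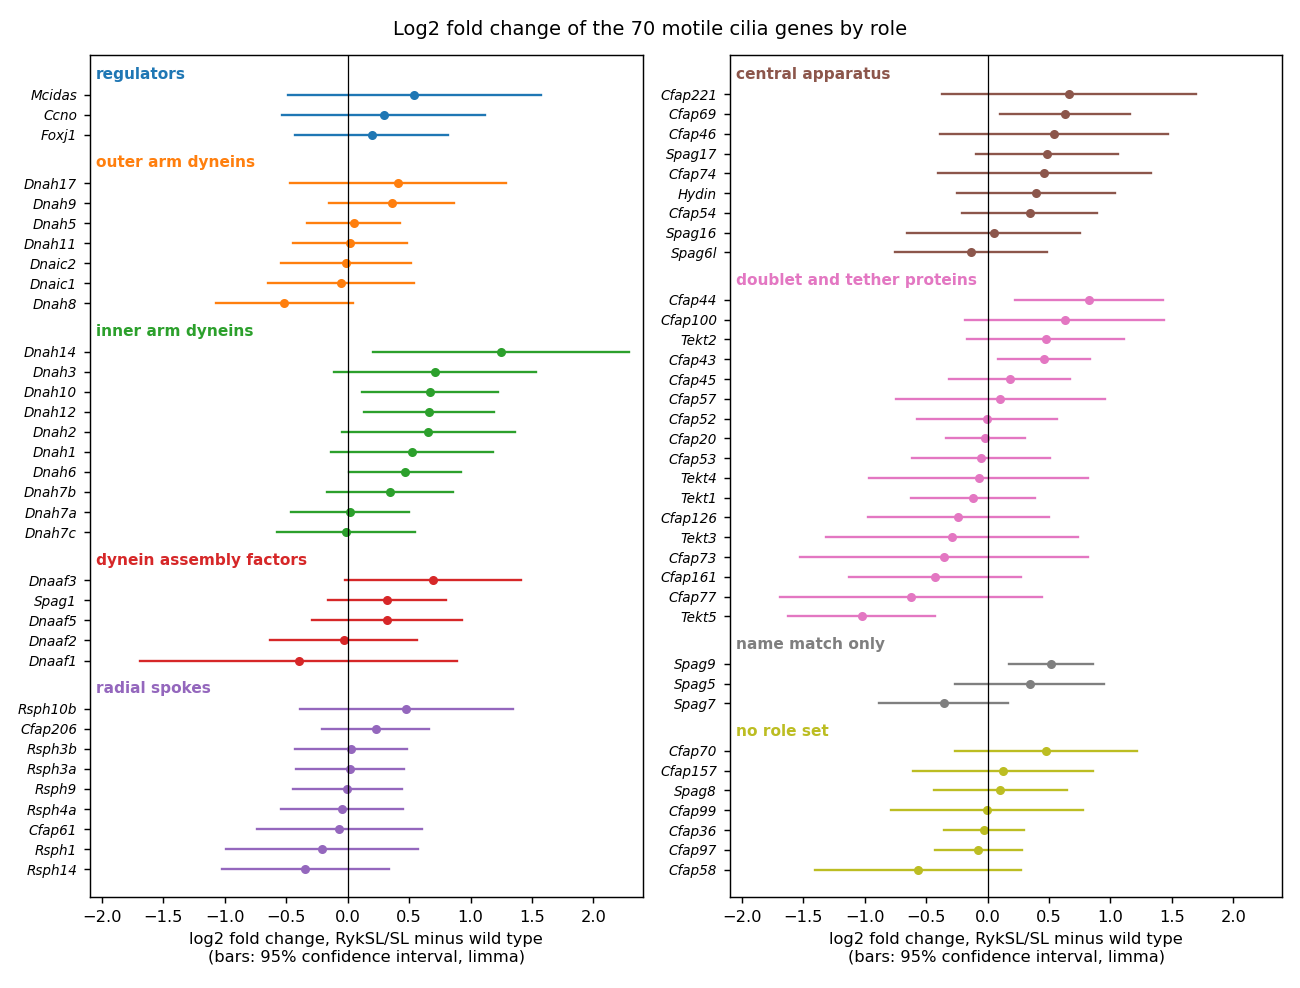
Log2 fold change (mutant minus wild type, horizontal axis) of each of the 70 genes, grouped by role, with points for the estimates and bars for the 95% confidence intervals from limma over 2 lungs per genotype. Most intervals include 0, and the inner arm dynein genes lie mainly to the right of it.

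The regulators came first in the cascade and differed more between lungs of one genotype than between genotypes. Foxj1 (ENSMUSG00000034227, chromosome 11, positions 116330704 to 116335399, GRCm38), the master transcription factor of motile cilia, had 1245 and 808 normalized counts in the mutant lungs, against 752 and 1020 in the wild-type lungs. The groups overlapped, and the log2 fold change was 0.20 (standard error 0.26, 95% confidence interval -0.43 to 0.82, limma adjusted p = 0.713). Mcidas, which encodes the geminin-family coactivator multicilin, had 56 and 29 against 22 and 34 normalized counts, and its log2 fold change was 0.54 with an interval from -0.49 to 1.57. Ccno, which is needed for basal body amplification, had 185 and 94 against 110 and 105, and its log2 fold change was 0.29. In all 3 genes mutant replicate 1 was the highest library and mutant replicate 2 lay inside or just below the wild-type range. Relative to the wild-type mean the 3 regulators had a median of 0.78 on the log2 scale in mutant replicate 1 and -0.12 in mutant replicate 2.

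Ccno and Mcidas are neighbours on chromosome 13, at positions 112987802 to 112990778 and 112993868 to 113000394, and the next gene on the same strand is Cdc20b (113035111 to 113091195), a gene of the same centriole amplification programme. Cdc20b had 106 and 46 normalized counts in the mutant lungs, against 19 and 35 in the wild-type lungs. Both mutant lungs were above both wild-type lungs, at a log2 fold change of 1.40 (limma, standard error 0.49, adjusted p = 0.200), so it was not called. The flanking genes Dhx29, an RNA helicase gene upstream, and Gpx8, a peroxidase gene of the endoplasmic reticulum downstream, did not have their highest value in mutant replicate 1: Dhx29 had 469 and 363 against 466 and 476, and Gpx8 913 and 1148 against 1523 and 1206. The locus was singled out after its values were seen.

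**Figure D2:**
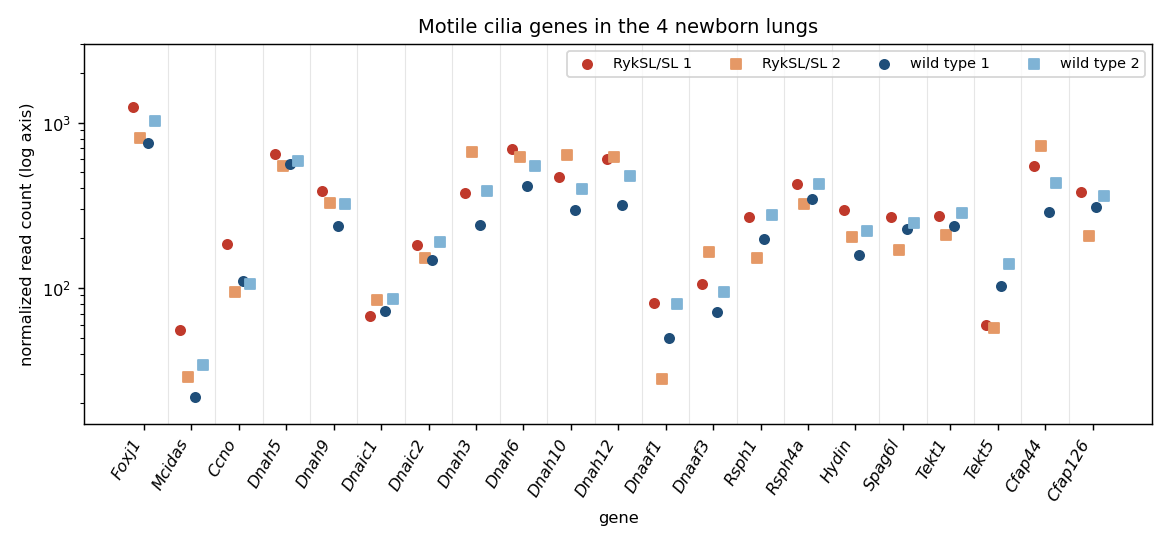
Normalized read counts (log axis) of 21 motile cilia genes in each of the 4 lungs, 1 point per lung. For Foxj1, Mcidas and Ccno the first mutant lung is the highest of the 4 and the second lies near the wild-type lungs, while Dnah10, Dnah12 and Cfap44 are above both wild-type lungs in both mutant lungs.

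The 7 outer dynein arm genes had estimates on both sides of 0, from -0.52 to 0.41, and none passed the test. Dnah5, a heavy chain of the outer arm whose loss causes primary ciliary dyskinesia, had 648 and 545 normalized counts in the mutant lungs, against 563 and 586 in the wild-type lungs. The groups overlapped, and the log2 fold change of 0.05 had a 95% confidence interval from -0.33 to 0.43. Dnah9, the partner heavy chain of the distal part of the cilium, had 387 and 326 against 238 and 321 (log2 fold change 0.36, adjusted p = 0.387), with the lower mutant lung 5 counts above the higher wild-type lung. Dnah11, the heavy chain of the proximal part, had 258 and 268 against 229 and 295, and the intermediate chain genes Dnaic1 and Dnaic2, whose promoters are printed above, had 68 and 84 against 72 and 86 and 182 and 152 against 148 and 190. Their log2 fold changes lay between -0.06 and 0.02. Dnah8, known mainly from sperm, was the 1 gene of this class with both mutant lungs below both wild-type lungs, at 105 and 81 against 141 and 124 (log2 fold change -0.52, adjusted p = 0.277). Dnah17, also a heavy chain, had the highest estimate of the class through 1 library, at 50 and 98 against 53 and 52 (0.41, adjusted p = 0.569). Over the class the median was 0.02, and it ran from -0.17 to 0.17 with 1 library left out.

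Inner dynein arm heavy chains had higher estimates in the mutant, though none passed the test. Of the 10 genes, 9 had a positive log2 fold change, 7 had both mutant lungs above both wild-type lungs, where 25.7% of all tested genes did, and the median was 0.59. All 10 have over 8000 bases of exon, and of the 2584 tested protein-coding genes of that length 42.1% lay above in the same way and 1646 had a positive estimate. Dnah12, a single-headed inner arm dynein, had 604 and 624 normalized counts in the mutant lungs, against 318 and 474 in the wild-type lungs. The groups did not overlap, and the log2 fold change was 0.66 (standard error 0.22, limma, adjusted p = 0.180). Dnah10, a heavy chain of the double-headed inner arm dynein, had 467 and 641 against 298 and 396, and its log2 fold change was 0.67, interval from 0.12 to 1.22 (adjusted p = 0.189). Dnah6 had 698 and 619 against 413 and 547 (0.47, adjusted p = 0.241) and Dnah2, the other heavy chain of the double-headed arm along with Dnah10, had 233 and 336 against 142 and 221 (0.66, adjusted p = 0.273). In Dnah3, with 378 and 664 against 242 and 387, the groups overlapped and mutant replicate 2 was far above the other lungs (0.71, adjusted p = 0.303). Dnah14, a little studied heavy chain placed here by its name, had the highest estimate of all 70 members at 1.25, from 27 and 41 against 18 and 10 normalized counts (adjusted p = 0.193). It was also the lowest member per length, with 0.862 wild-type counts per kilobase of exon.

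The 3 heavy chains of the Dnah7 family sit on chromosome 1 and share sequence, so that reads cannot be assigned to one of them with certainty. Of their transcripts' 50-base sequences, 38.6% in Dnah7a and 46.8% in Dnah7c also occur in transcripts of other genes, and Dnah7b shares sequence with both. Dnah7a had 108 and 109 normalized counts in the mutant lungs, against 106 and 108 in the wild-type lungs, the most even member of the inner arm group. Dnah7b had 305 and 244 against 190 and 242, and Dnah7c 174 and 125 against 141 and 157. The median of the inner arm group remained positive under every setting tried, from 0.30 without wild-type replicate 1 to 0.86 without wild-type replicate 2, and was 0.46 and 0.62 when mutant replicate 2 or mutant replicate 1 was left out.

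Of the 5 dynein assembly factor genes 3 had a positive estimate. Their median was 0.32, and 0.03 without mutant replicate 1. Dnaaf3 had 106 and 166 normalized counts in the mutant lungs against 71 and 94 in the wild-type lungs (log2 fold change 0.69, adjusted p = 0.261), and its mutant lungs were both above the wild type. In Dnaaf1 the mutant lungs were the extremes of the 4, at 81 and 28 against 50 and 80 (-0.40, with an interval from -1.69 to 0.89). Dnaaf5 had 381 and 256 against 220 and 284 and Dnaaf2, a cochaperone of dynein folding, 156 and 106 against 134 and 129. Spag1, also an assembly factor, had 138 and 148 against 107 and 122 (0.32). Of the 50-base sequences of Dnaaf2 transcripts 68.1% are shared with other genes that overlap it, and 19.3% of those of Dnaaf1.

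Radial spoke genes showed a median log2 fold change of 0.00 over 9 genes, with 4 estimates above 0. The median was -0.20 without mutant replicate 1 and 0.20 without mutant replicate 2. Rsph4a, a spoke head protein, had 424 and 322 normalized counts in the mutant lungs, against 345 and 423 in the wild-type lungs. Rsph1, another head protein, had 270 and 152 against 198 and 278 and Rsph9 had 214 and 249 against 218 and 245. In these 3 genes the groups overlapped. The most abundant pair, Rsph3a (994 and 742 against 827 and 865) and Rsph3b (1122 and 818 against 912 and 967), are near copies on chromosome 17 with 58.1% and 69.2% shared 50-base sequences, and they ran in parallel over the lungs. Rsph10b stood apart through 1 library, with 197 and 424 against 205 and 210. Its log2 fold change was 0.48 with all lungs (adjusted p = 0.502), 1.03 without mutant replicate 1 and -0.07 without mutant replicate 2.

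Central apparatus genes had a median log2 fold change of 0.46 over 9 genes, 8 of them with a positive estimate. The groups overlapped in 7 of the 9, and 22.2% lay above, against 25.7% of all tested genes. The median was 0.25 without wild-type replicate 1, 0.29 without mutant replicate 2, 0.61 without wild-type replicate 2 and 0.67 without mutant replicate 1. Cfap69, a projection protein, had 618 and 912 normalized counts in the mutant lungs, against 456 and 514 in the wild-type lungs, without overlap (0.63, standard error 0.22, limma adjusted p = 0.193). Spag17 likewise did not overlap, at 191 and 249 against 134 and 181 (0.48, adjusted p = 0.318). Hydin, a giant protein of the central pair that is named for hydrocephalus in mutant mice and has the X-box printed above, had 298 and 204 against 159 and 220 (0.40, with an interval from -0.25 to 1.04). Its groups overlapped. Cfap221 had 32 and 59 against 35 and 21 (0.66), Cfap54 403 and 292 against 240 and 305 (0.34), and Cfap46 162 and 332 against 130 and 195 (0.54). Spag16 and Spag6l had 253 and 144 against 189 and 180 and 270 and 170 against 226 and 246, with the second mutant lung lowest in each.

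Of the 17 tektin, other doublet protein and inner arm tether genes, the groups overlapped in 13. Both mutant lungs were above both wild-type lungs in 3 (17.6%) and below both in 1 (5.9%). Over all tested genes 25.7% lay above and 26.9% below. Cfap44 and Cfap43 encode subunits of a complex that tethers an inner arm dynein. Cfap44 had 545 and 721 normalized counts in the mutant lungs against 289 and 431 in the wild-type lungs, without overlap, a log2 fold change of 0.83 with an interval from 0.23 to 1.43 (adjusted p = 0.152). Cfap43 had 1242 and 1418 against 895 and 1042 (0.46, adjusted p = 0.188), also without overlap. Tekt5, a tektin known mainly from sperm, had the lowest estimate of all members: 60 and 57 against 103 and 140, which gave a log2 fold change of -1.03 (standard error 0.25) and the smallest adjusted p among members, 0.102. Tekt2 had 136 and 150 against 83 and 127, Tekt1 273 and 209 against 238 and 283, and Tekt4 177 and 95 against 109 and 171. For Cfap77 (49 and 22 against 43 and 61), Cfap161 (120 and 73 against 120 and 133) and Cfap126 (382 and 207 against 307 and 359) the second mutant lung was below the other 3. Cfap20, a doublet protein made in many cell types, had 1519 and 1581 against 1603 and 1537, and its log2 fold change was -0.02, interval from -0.34 to 0.30. The class median over 17 genes was -0.05, and 0.02 after quantile normalization. It was -0.25 without mutant replicate 1 and 0.20 without mutant replicate 2.

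Among the other members, 3 carry a matching name but are known for other work. Spag9, a scaffold protein for motor-driven transport and JNK signalling, had 7011 and 7180 normalized counts in the mutant lungs against 4880 and 5042 in the wild-type lungs. The groups did not overlap, and the log2 fold change was 0.52 (standard error 0.14, limma, adjusted p = 0.132). Spag7 had 714 and 482 against 717 and 788 (-0.36), and the spindle protein gene Spag5 had 166 and 114 against 114 and 103 (0.34). No role was set for 7 further genes, whose estimates ran from -0.57 in Cfap58 (80 and 42 against 87 and 86) to 0.47 in Cfap70 (167 and 154 against 86 and 154).

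Per kilobase of exon, Spag7 (508), Spag9 (443), Cfap20 (353) and Foxj1 (338) had the highest wild-type means among the members, followed by Rsph3b (302). Further down the order were Cfap126 with 188 normalized counts per kilobase, Rsph1 with 173 and Tekt1 with 161. At the bottom, before Dnah14, were Dnah17 (3.26), Dnah8 (4.94) and Tekt3 (8.01). Just inside the minimum for inclusion were Tekt3, with 9 and 14 against 13 and 15 normalized counts, and Cfap73, with 21 and 9 against 18 and 18. Just outside it were Spag6 (9 and 9 against 9 and 8) and Spag4 (7 and 9 against 9 and 10). Rsph6a was at 0 in 3 lungs and at 1 in wild-type replicate 2, and Spag11a and Spag11b were listed at 0 in all libraries.

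Over these genes the median difference between lungs of one genotype was larger in size than that between the genotypes. A difference between single lungs tends to be larger than one between means of 2 lungs, also without a genotype difference. Wild-type replicate 1 was below wild-type replicate 2 in 57 of the 70 members (81.4%), against 49.1% of all tested genes, and the median difference between these 2 lungs was -0.25 on the log2 scale, beside 0.00 over all tested genes. The median difference of mutant replicate 2 from mutant replicate 1 was -0.23, and that between the genotypes was 0.10. Relative to the wild-type mean the members had a median of 0.24 in the first mutant lung and 0.04 in the second, with 53 and 39 of 70 genes above it. Left out in turn, wild-type replicate 1 took the members' median to 0.01 and wild-type replicate 2 to 0.26. Against the same wild-type mean, the medians of mutant replicates 1 and 2 were 0.46 and 0.62 for the inner arm genes, 0.29 and 0.67 for the central apparatus, and 0.20 and -0.25 for the doublet and tether genes.

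**Figure D3:**
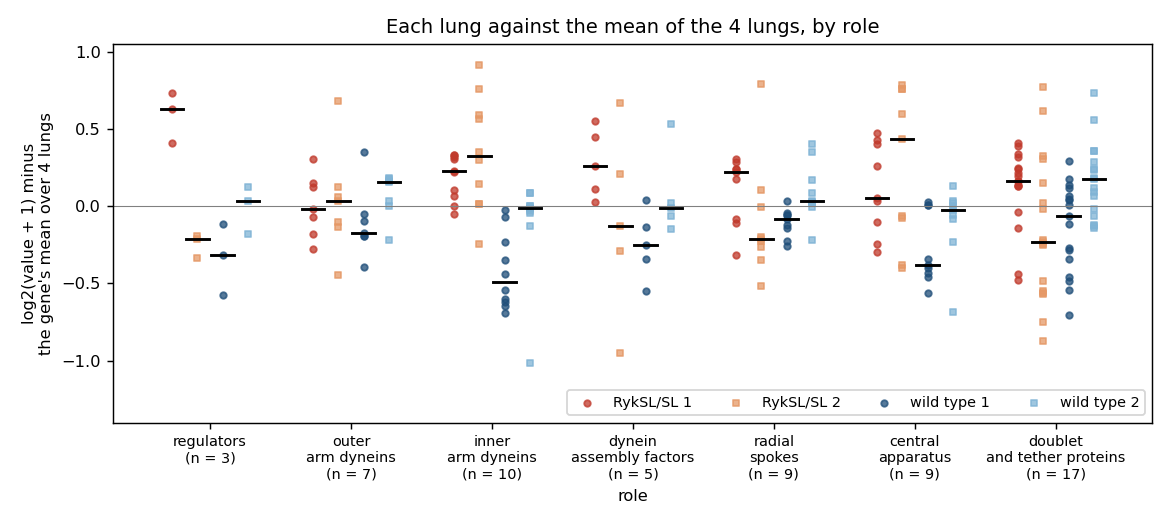
Each gene's log2(value + 1) in a lung minus its mean over the 4 lungs (vertical axis), by role, with 1 point per gene and lung and black lines for the medians. Wild-type replicate 1 lies low for the inner arm and central apparatus genes, and mutant replicate 2 lies high for those classes and low for the regulators, radial spokes and doublet proteins.

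The members' differences went with the length of their transcripts. The exon length per gene was the union of its GENCODE M21 exons, found for all 70 members. Over the members the Spearman correlation of the log2 fold change with exon length was 0.46, and over 14690 tested protein-coding genes it was 0.21. Genes are not independent replicates, and the points of one lung share a library, so the values are descriptions. By lung the members' correlation was 0.32 for the first mutant lung, 0.43 for the second, and 0.04 for the difference between the wild-type lungs. Over the 14690 genes these values were 0.23, 0.15 and -0.11. The 24 members with over 8000 bases of exon had a median log2 fold change of 0.44, where all 2584 tested protein-coding genes of this length had 0.12. The 34 members under 4000 bases had a median of -0.03, where all 6588 genes of that length had -0.11. Against the wild-type mean, the long members had a median of 0.35 and the short members 0.18 in mutant replicate 1, while in mutant replicate 2 the values were 0.46 and -0.20. All 15 dynein heavy chain genes are long, with at least 12009 bases of exon, and their median was 0.41 against 0.03 for the other 55 members. The part of transcript length in the inner arm and central apparatus values was not tested.

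**Figure D4:**
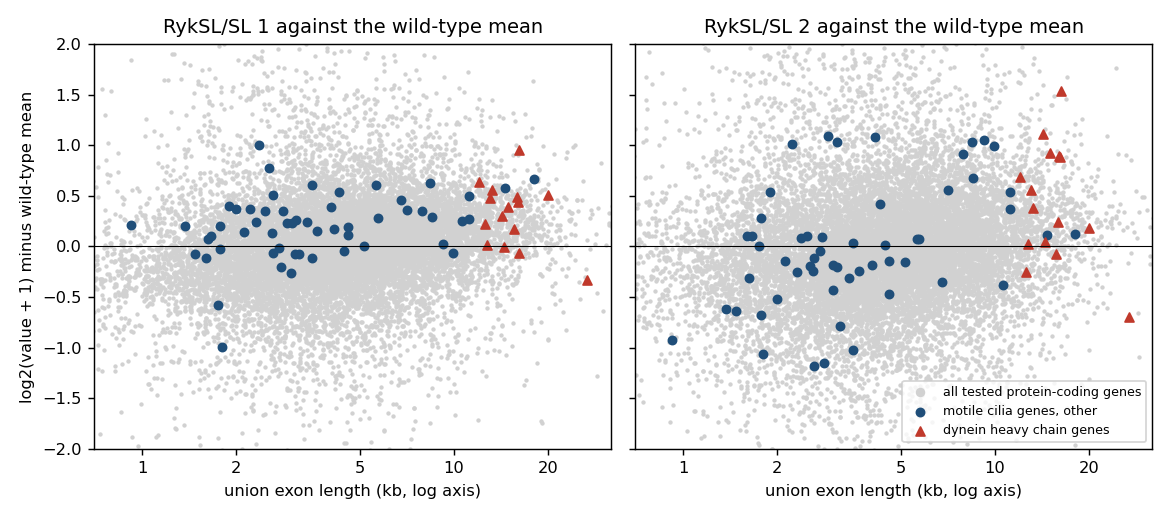
Log2(value + 1) of each mutant lung minus the wild-type mean (vertical axis) against union exon length (kb, log axis). Red triangles are the 15 dynein heavy chain genes, blue points the other 55 members and grey points all tested protein-coding genes, of which some lie outside the axes. In the first mutant lung the medians of long and short members are both above 0 (0.35 and 0.18), and in the second the long members lie mostly above 0 and the short members mostly below it.

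Other genes of multiciliated cells were listed under other names. Of 58 listed genes, 56 were tested and none was called in either direction, where 2.39% of all tested genes were called (limma). At an unadjusted p under 0.05, 2 were higher and 1 was lower, beside 20.1% of all tested genes, and the median log2 fold change was 0.03. Capsl, a calcium-binding protein gene, had 169 and 122 normalized counts in the mutant lungs against 234 and 222 in the wild-type lungs (-0.66, adjusted p = 0.181). Ttc21a had 277 and 458 against 184 and 227 (0.80, adjusted p = 0.193). Wdr66, which encodes a radial spoke protein, had 283 and 317 against 187 and 234 (0.52) and Ccdc114, an outer arm docking protein, 255 and 366 against 200 and 220 (0.54). In these 4 genes, picked for the smallest p-values of the list, the groups did not overlap. Over the 56 genes the groups overlapped in 39. Of the 56, 17.9% lay above and 12.5% below, against 25.7% and 26.9% of all tested genes. Wild-type replicate 1 was below wild-type replicate 2 in 41 of the 56 genes, the same direction as in the members.

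Upstream factors and centriole amplification genes had a median log2 fold change of 0.17 over 17 tested genes of 18 listed, and none was called, beside 2.39% of all tested genes. At an unadjusted p under 0.05 (limma), 5 were higher and 2 were lower, where 10.4% and 9.64% of all tested genes were. Rfx3, a factor that binds the X-box, had 928 and 1150 normalized counts in the mutant lungs against 728 and 665 in the wild-type lungs, a log2 fold change of 0.57 (standard error 0.16, limma, adjusted p = 0.144). Rfx2, of the same family, had 365 and 237 against 188 and 181 (0.67, adjusted p = 0.208). Gmnc, of the same list, went the other way, with 40 and 20 against 66 and 52 (-1.02, adjusted p = 0.227). Rfx2 and Gmnc were picked with their values known. Ccp110, which encodes a protein that caps centrioles, had 1361 and 1804 against 1135 and 1085 (0.50, adjusted p = 0.201). Cep78, a centriolar protein gene, had 263 and 250 against 379 and 366 (-0.54, adjusted p = 0.144). The groups did not overlap in any of these genes, which were picked by p-value or with their values known. Over the 17 genes, 41.2% lay above and 11.8% below, against 25.7% and 26.9% of all tested genes. The 34 intraflagellar transport genes, which serve primary cilia as well, had a median of 0.02 with no call, beside 2.39% of all tested genes (limma). At an unadjusted p under 0.05, 2 were higher and 2 were lower, where 20.1% of all tested genes passed that value. Wdr60, a transport dynein chain, had 439 and 498 against 250 and 325 (0.71, adjusted p = 0.127), and Ttc30a1 194 and 113 against 251 and 267 (-0.80, adjusted p = 0.199). Ttc21b had 286 and 233 against 338 and 365 (-0.44, adjusted p = 0.242), and Traf3ip1 694 and 728 against 454 and 601 (0.44, adjusted p = 0.246).

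Markers of neighbouring cell types gave the setting of these values, and their part in the members' values was not tested. All 9 club cell markers were tested, and their normalized counts summed to 105109 and 128832 against 118916 and 127647, which overlap. Single markers went both ways: 22.2% lay above and 22.2% below, against 25.7% and 26.9% of all tested genes. Picked with their values known, Upk3a had 93 and 103 against 198 and 267 (-1.22, limma adjusted p = 0.0552). Scgb3a1 had 875 and 730 against 513 and 422 (0.78, limma adjusted p = 0.0895). For the 12 general epithelial markers the sums were 30964 and 25620 against 23533 and 22794. None of the 12 was called, beside 2.39% of all tested genes. At an unadjusted p under 0.05 (limma) 4 were higher and 1 was lower, where 10.4% and 9.64% of all tested genes were. The most abundant were Cdh1 with 5740 and 3398 against 4684 and 4466 (-0.05), Nkx2-1 with 4853 and 4919 against 4234 and 4126 (0.23) and Krt8 with 5617 and 4655 against 3796 and 3319 (0.53, adjusted p = 0.167). The lower gene, picked with its values known, was the forkhead factor gene Foxa2 at 561 and 499 against 839 and 885 (-0.70, adjusted p = 0.0750). Of 7 basal cell markers 4 were tested, with Krt5, Trp63 and Dapl1 under the minimum, and all 7 summed to 718 and 783 against 560 and 663. Krt15, the most abundant, had 581 and 635 against 384 and 550. Of the 4 tested, 2 had a positive and 2 a negative estimate. Of 8 neuroendocrine markers 5 were tested, with sums of 607 and 634 against 298 and 262. Of the 5, 3 had a positive and 2 a negative estimate. Calca, which encodes the neuroendocrine peptide CGRP, had 147 and 328 against 60 and 69 (1.76, adjusted p = 0.0846) and was not called. Airway cartilage markers, of which 6 of 12 were tested, summed to 1102 and 975 against 859 and 954, with Acan and Col2a1 under the minimum. The 5 mesothelial markers ran from 9803 in mutant replicate 1 to 20395 in mutant replicate 2, with 15128 and 13044 in the wild type. The 8 alveolar type 2 markers summed to 268326 and 237211 against 341158 and 309668, and of all marker genes the chemokine gene Cxcl15 was the 1 that was called, at 12794 and 13009 against 34355 and 30055 (log2 fold change -1.32). Of the 8, 4 had both mutant lungs below both wild-type lungs and 1 had them above, where 26.9% and 25.7% of all tested genes did. The 1 above was the surfactant protein gene Sftpd with 16285 and 31118 against 15106 and 12699 (0.70, adjusted p = 0.293). Sftpd was likewise picked with its values known.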

How the data were processed

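Poly(A) RNA libraries were made with a stranded mRNA kit from the left lung lobes of 4 newborn mice, per the labels' protocols. The submitters' processing notes name FastQC, STAR 2.4.0a, featureCounts 1.5.1 of Subread and DESeq2 1.14.1, with mm10 and GRCm38. For the strand setting, the annotation release and the scaling, the sources used here give nothing. The authors deposited a single file of whole-number values named as normalized counts, treated here as a score: the scaled values were rounded, and mutant replicate 2 has 4 low whole numbers from 1 to 29 that no gene holds. The factors read from this spacing were 0.855, 1.17, 0.987 and 0.994 for mutant replicates 1 and 2 and wild-type replicates 1 and 2, but whole reads were not recovered, so no count model was run. Values under about 10 rest on few reads.

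Genes with a mean of at least 10 were tested with limma 3.58.1 (R 4.3.3), two-sided, on log2(value + 1), letting the prior variance follow mean expression, with Benjamini-Hochberg adjustment over all 18436 genes. The prior degrees of freedom were 4.07. Fold changes on this scale understate those of low genes. The members, lists and named genes were chosen with earlier results of these data known. The rule named Foxj1, Mcidas, Ccno and Hydin, any called member, the 6 highest and 6 lowest estimates and the 2 most abundant members of each role, and of other lists the called genes, up to 4 of the smallest p-values per cilia list and up to 3 of the most abundant markers per marker list; other genes were named after their values were seen. The fit was tested on simulated data. Starts of 62 members matched GENCODE M21 (GRCm38), and 11 members share over 10% of their 50-base transcript sequences with other genes. Exons of a gene on the opposite strand overlap 23 members by at least 100 bases, and exons on the same strand 3, so reads there cannot be assigned with certainty. Labels describe 2 mice per genotype as the replicates. Alternatives were another pseudocount, other filters, no trend, 2 other scalings, a replicate block, leaving out each library, and leaving out the 3 members known for other work. Summaries used pandas 2.3.3 and scipy 1.17.1 under Python 3.11.15, and plots used matplotlib 3.10.9.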

Additional observations from a re-analysis of the deposited data

How the results depend on the processing

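The count of 0 called members held, in both directions, with a pseudocount of 8, with no filter, with a minimum mean of 50 (63 members), with no trend, after quantile normalization, after scaling to library totals, with the replicate block and without the 3 members known for other work. With 1 library left out it ranged from 0 to 3 higher and stayed at 0 lower. The count over all genes was 440 and changed to 0 with no filter, 72 with no trend and 766 with the replicate block, and ranged from 0 to 2385 with 1 library left out. The 0 with no filter came with 4876 genes at an unadjusted p under 0.05, and the counts of 0 without mutant replicate 2, wild-type replicate 1 and wild-type replicate 2 with 5249, 917 and 1133. The causes were not tested. Where a genotype kept 1 library, that library was assumed to vary like the other genotype. The median of the members ran from 0.00922 to 0.265 with 1 library left out, 0.265 being the value without wild-type replicate 2, and from 0.02 to 0.16 under the other settings.

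Of 206 comparisons of the 30 genes named by rule with these other settings, 6 changed sign and none passed the threshold. After quantile normalization Dnaaf2 was at 0.055, Rsph3b at -0.035 and Rsph3a at -0.038. After scaling to library totals Dnah5 was at -0.0296, Rsph3b at -0.050 and Rsph3a at -0.0567. With 1 library left out the sign changed in 8 genes: Foxj1 ranged from -0.12 to 0.51, Ccno from -0.19 to 0.78, Dnah5 from -0.0756 to 0.17, Dnaaf1 from -1.15 to 0.35, Dnaaf2 from -0.31 to 0.25, Rsph3a from -0.19 to 0.23, Rsph3b from -0.20 to 0.26 and Cfap20 from -0.0488 to 0.0119. The replicate numbers are only shared numbers: deviations of same-numbered lungs from their genotype means correlated at -0.06 over genes, and the replicate block left the members' count at 0. Each genotype has 2 lungs, and the effects of read depth and of sex were not tested.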
